A study of Mus musculus with 8 samples.

Results

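Coding exons, the stretches of a gene that are read as codons, were taken from the CDS records of protein-coding genes on chromosomes 1 to 19 in the mouse annotation GENCODE M21 (build GRCm38). The 500697 records were merged where they overlapped, which left 198133 intervals of 20807 genes, called coding exons below, with a total of 34.7 Mb and a median length of 124 bp. By their place in the representative transcript of the gene, 17253 were first, 150087 internal and 17227 last coding exons, 3194 held the whole coding sequence of a gene (single), 10075 were used only by other transcripts, and 297 had different places in overlapping genes. They were set against the 4 lists of 5-hmC peaks of the study, which merged into 2463835 regions on these chromosomes, and 37270 of these regions had their midpoint in a coding exon.

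The peaks came from hMeDIP-seq, in which an antibody against 5-hydroxymethylcytosine (5-hmC) pulls down sonicated genomic DNA (fragments of 350 bp) that is then sequenced. The DNA was from B220+CD43+IgM- progenitor B (pro-B) cells sorted from the bone marrow of C57BL/6 mice aged 4 to 6 weeks. The 2 HDAC7-deficient libraries were from Hdac7 fl/- mice with mb1-Cre, a recombinase driven by the B-lineage gene Cd79a, and the 2 control libraries, labelled wild-type, were from Hdac7 +/- littermates, so the controls carried 1 working copy of the gene. A list of peak positions holds no expression, so neither the cell type nor the loss of Hdac7 could be checked against marker genes, and the 4 input libraries were not analysed here. Autosomal peaks numbered 1246432 and 1345949 in the wild-type libraries (replicates 1 and 2) and 1364224 and 1283899 in the HDAC7-deficient ones. With no height or read count in the lists, the sequencing depth is unknown. The density of all peaks on chromosomes 14 to 19 was 0.995 and 0.996 of that on chromosomes 1 to 13 in wild-type, 0.993 in HDAC7-deficient replicate 1 and 1.11 in HDAC7-deficient replicate 2, for which reason values on chromosomes 1 to 13 are given beside the main ones where they differ. Nothing in the labels says that the libraries of a genotype came from separate animals. The p-values therefore refer to agreement between these libraries and not to the size of their spread, which may be technical.

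5-hmC is made from 5-methylcytosine by the TET dioxygenases and is both an intermediate of active demethylation and a lasting mark of DNA. It lies almost wholly at CpG dinucleotides. In many tissues it is found in the bodies of transcribed genes and at enhancers, and is low at the unmethylated CpG islands where transcription starts. In vertebrate genomes most internal coding exons are short and lie between much longer introns, from which they differ in base composition.

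The 9 internal coding exons below show what the presence, absence or change of a peak refers to. They are 90 to 200 bp long, hold no soft-masked (repeat) base, and are printed 5′ to 3′ on the strand of the gene from the GRCm38 sequence, with each CpG in capitals. The first 3 lay wholly under a peak in all 4 libraries and come from 89 exons of this size and kind with a peak in all 4. They belong to Slc9a5, a sodium and proton exchanger, Abca2, a lipid transporter, and Phlpp1, a protein phosphatase. They hold 11, 6 and 5 CpGs.
Slc9a5, chr8:105355847-105356024, plus strand: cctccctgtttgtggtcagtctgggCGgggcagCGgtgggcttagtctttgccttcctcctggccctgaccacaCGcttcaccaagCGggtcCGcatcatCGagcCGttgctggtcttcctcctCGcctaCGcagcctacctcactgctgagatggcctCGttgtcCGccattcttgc
Abca2, chr2:25433098-25433209, plus strand: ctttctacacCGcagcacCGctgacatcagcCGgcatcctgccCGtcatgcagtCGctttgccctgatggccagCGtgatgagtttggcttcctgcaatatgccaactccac
Phlpp1, chr1:106286991-106287116, plus strand: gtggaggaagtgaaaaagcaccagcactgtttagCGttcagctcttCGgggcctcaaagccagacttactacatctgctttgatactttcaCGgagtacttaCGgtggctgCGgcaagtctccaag
The next 2 come from 183 such exons gained in HDAC7-deficient cells, which means that both libraries without HDAC7 had a peak there and both wild-type libraries lacked one. Gfpt2, an enzyme of hexosamine synthesis, and Runx1t1, a transcriptional corepressor, were each covered over their whole exon in both HDAC7-deficient libraries and over no base in the wild-type libraries, and hold 11 and 8 CpGs.
Gfpt2, chr11:49826744-49826901, plus strand: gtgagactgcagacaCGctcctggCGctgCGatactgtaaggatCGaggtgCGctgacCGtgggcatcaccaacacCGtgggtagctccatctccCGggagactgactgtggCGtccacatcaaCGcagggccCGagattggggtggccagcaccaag
Runx1t1, chr4:13881050-13881240, plus strand: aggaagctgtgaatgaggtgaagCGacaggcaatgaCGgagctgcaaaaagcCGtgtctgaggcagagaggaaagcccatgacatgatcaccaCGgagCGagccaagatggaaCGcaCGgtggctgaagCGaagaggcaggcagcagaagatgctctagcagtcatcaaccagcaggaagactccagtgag
The reverse held for 2 of 168 such exons lost in HDAC7-deficient cells, in Runx3, a Runt transcription factor (14 CpGs), and in Slc12a9, of the cation and chloride cotransporter family (9 CpGs).
Runx3, chr4:135155282-135155438, plus strand: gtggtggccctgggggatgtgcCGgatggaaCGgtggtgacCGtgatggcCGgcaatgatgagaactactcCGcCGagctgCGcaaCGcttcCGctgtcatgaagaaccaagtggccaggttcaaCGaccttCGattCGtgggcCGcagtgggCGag
Slc12a9, chr5:137325517-137325674, minus strand: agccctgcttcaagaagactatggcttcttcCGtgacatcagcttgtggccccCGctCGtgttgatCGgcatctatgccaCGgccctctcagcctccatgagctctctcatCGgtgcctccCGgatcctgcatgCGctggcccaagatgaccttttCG
The last 2 had the most CpGs, 30 and 27, among 46531 such exons without a covered base in any library. Both are coding exon number 2 of their gene, Srsf1, a splicing factor, and Noc2l, a nucleolar regulator of histone acetylation.
Srsf1, chr11:88048490-88048674, plus strand: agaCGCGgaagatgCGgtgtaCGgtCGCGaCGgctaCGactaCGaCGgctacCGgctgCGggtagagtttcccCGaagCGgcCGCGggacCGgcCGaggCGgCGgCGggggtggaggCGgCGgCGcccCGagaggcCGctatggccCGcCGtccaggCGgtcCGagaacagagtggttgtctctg
Noc2l, chr4:156236155-156236325, plus strand: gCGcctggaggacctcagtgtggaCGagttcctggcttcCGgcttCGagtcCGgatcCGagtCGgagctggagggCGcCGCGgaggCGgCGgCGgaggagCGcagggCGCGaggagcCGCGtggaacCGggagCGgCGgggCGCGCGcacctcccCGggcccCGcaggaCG
The exons were picked by their peaks and coverage, and the last 2 also for their number of CpGs. These values therefore describe them and support nothing. The 2 exons without coverage had 16.2 and 15.8 CpGs per 100 bp, against 3.97 to 6.18 in the 3 exons covered in every library. This difference follows from the choice. Over all coding exons, those without a peak in any library held 2.83 CpGs per 100 bp and those with a peak in all 4 held 2.67.

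The first comparison asked how often a peak lay in a coding exon. In both genotypes coding exons held somewhat fewer peaks per base than the chromosomes at large, although they held more CpGs. Of the peaks of a library, 16442 and 19252 had their midpoint in a coding exon in wild-type cells (replicates 1 and 2) and 17902 and 16824 in HDAC7-deficient cells, or 1.31% to 1.43% of all. Their density was 474 and 555 midpoints per Mb of coding exon in wild-type cells and 516 and 485 in HDAC7-deficient cells, against 520, 562, 569 and 536 per Mb of all known autosomal sequence. The ratio of these densities, called relative density below, was 0.911 and 0.988 in wild-type cells and 0.906 and 0.905 in HDAC7-deficient cells (mean 0.927 ± 0.0403, SD, n = 4 libraries). It lay below 1 in all 4 libraries (two-sided exact sign-flip permutation test over the libraries, p = 0.13, the smallest that 4 libraries allow, and 0.146 after Benjamini-Hochberg adjustment over the 7 main comparisons). With this test no comparison over 4 libraries can pass 0.05, and the number of libraries on each side of 1 is given beside it.

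Against the intron within 500 bp of a coding exon, which shares its gene and neighbourhood, the density was 0.918 and 0.984 in wild-type cells and 0.915 and 0.954 in HDAC7-deficient cells, again below 1 in 4 of 4 libraries. The share of coding bases under a peak was 7.66% and 9.99% in wild-type cells and 7.68% and 8.86% in HDAC7-deficient cells. This was 0.814, 0.927, 0.826 and 0.834 of the share over all autosomal sequence, so coding exons were lower by covered bases as well. CpGs numbered 2.93 per 100 bp in coding exons, 1.09 in the adjacent intron, 1.61 in the noncoding part of exons and 0.851 over the autosomes. Per 1000 CpGs, coding exons held 16.2 to 18.9 peaks, the adjacent intron 46.6 to 51.6 and the autosomes 61.1 to 66.9. The noncoding part of exons had a relative density of 0.894 to 0.957, close to that of coding exons.

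Peaks in coding exons were narrow and often ran past the exon edge. Their median width was 129 and 135 bp in wild-type cells and 119 and 135 bp in HDAC7-deficient cells, against 147 to 171 bp for all peaks. Between 50.5% and 54.4% of them lay wholly within the exon, and 70.5% to 76.7% of their bases were coding. The way a peak is assigned changes the direction here. When a peak counted for every interval it overlapped by at least 1 bp, the density of coding exons became 1.75 times that of the autosomes and 1.40 times that of the adjacent intron, because a short interval is met by many peaks centred outside it. Covered bases do not depend on this choice. By chromosome, the mean relative density of coding exons, with each chromosome's own density as reference, ran from 0.802 on chromosome 13 to 1.05 on chromosome 7, the only chromosome whose coding exons were above 1 in all 4 libraries.

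**Figure D1:**
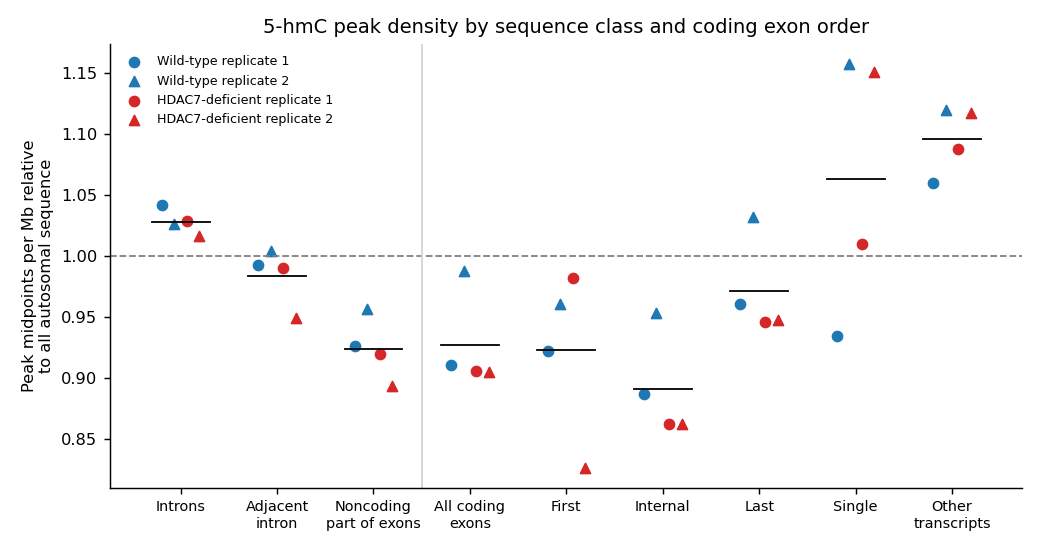
Peak midpoints per Mb relative to all autosomal sequence (dashed line at 1) for 3 kinds of noncoding sequence and for coding exons by their order in the gene. Each point is a library and each bar the mean of 4, and all coding exons together lie between 0.905 and 0.988.

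The edges of coding exons were examined in 32717 internal exons of 100 to 200 bp whose neighbouring introns were both at least 1000 bp long. Coverage fell from the intron toward the exon on both sides. Its lowest point lay within 20 bp of the acceptor (3′) splice site in every library. The fragments of 350 bp were longer than these exons. Peaks therefore do not resolve 5-hmC to 20 bp or place it in the exon rather than the adjoining intron. The 20 bp of intron and of exon at the acceptor site were nearly level in each library. They were at 5.06% and 5.15%, and 7.41% and 7.45%, in wild-type replicates 1 and 2. In HDAC7-deficient replicates 1 and 2 they were at 5.36% and 5.35%, and 6.62% and 6.55%. In the first 60 bp of exon after the acceptor site, 5.28% and 7.56% of bases lay under a peak in wild-type cells and 5.44% and 6.61% in HDAC7-deficient cells. In the intron 400 to 500 bp upstream these shares were 9.01%, 10.1%, 9.07% and 9.85%, so the exon was at 0.586, 0.748, 0.600 and 0.670 of the intron (mean 0.651, below 1 in 4 of 4 libraries, exact sign-flip permutation p = 0.13). The intron within 100 bp of the acceptor was already at 0.677 of the distant intron on average. At the donor (5′) site the last 60 bp of exon were at 0.710 and the first 100 bp of intron at 0.805. CpG density ran the other way, with 2.37 and 2.47 CpGs per 100 bp in the exon bands and 0.870 and 0.856 in the distant intron. All 4 libraries had the trough, and in the acceptor exon band the replicates of each genotype differed more from each other than the genotypes did.

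**Figure D2:**
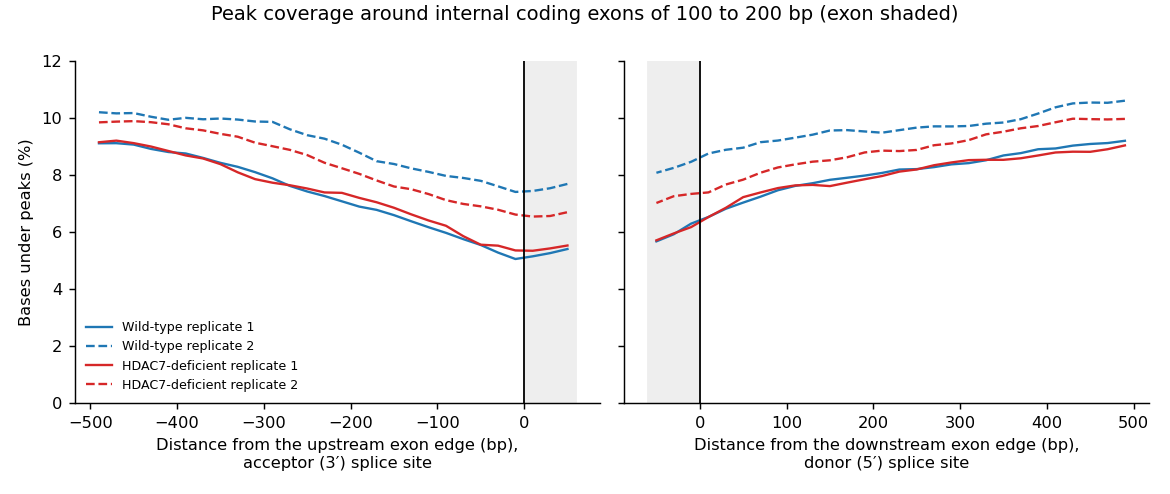
Share of bases under a peak in 20 bp steps from 500 bp of intron into the first 60 bp of exon (shaded) at the acceptor site, left, and from the last 60 bp of exon into 500 bp of intron at the donor site, right, with 1 line per library. Every line falls toward the exon, to between 5.28% and 7.56% in the acceptor exon band.

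Exon length was the next feature compared. Long internal coding exons had more peaks per base than short ones in every library. Internal exons of at most 100 bp (48411 exons) had a relative density of 0.751 and 0.848 in wild-type cells and 0.749 and 0.787 in HDAC7-deficient cells. Exons of over 200 and up to 500 bp (17090) stood near the autosomal density, at 1.03, 1.03, 0.975 and 0.958. The 764 internal exons over 1000 bp lay above it, at 1.23 and 1.25 in wild-type cells and 1.23 and 1.22 in HDAC7-deficient cells. These longest exons differed less between libraries (SD 0.0131) than any other length class of internal exons. The density of internal exons over 200 bp was 1.43 and 1.28 times that of exons of at most 100 bp in wild-type cells and 1.39 and 1.29 times in HDAC7-deficient cells (mean 1.35 ± 0.0730, SD, n = 4, above 1 in 4 of 4, exact sign-flip permutation p = 0.13). By covered bases, 6.64% to 8.76% of bases lay under a peak in exons of at most 100 bp and 11.8% to 15.0% in those over 1000 bp. The rise in covered bases was seen only above 200 bp. Exons of at most 100 bp were at 6.65% and 8.76% in wild-type cells and 6.64% and 7.66% in HDAC7-deficient cells. The length class that ended at 200 bp was nearly level with these, at 6.68%, 8.82%, 6.54% and 7.62%. Assignment by any overlap turned the ratio of long to short exons to 0.542, since overlap favours short intervals. By midpoint, in exons without a soft-masked base, the ratio was 1.16.

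The length relation was also seen within classes of CpG density. Within each of 5 equal classes of internal exons by CpG density, exons over 200 bp were denser in peaks than exons of at most 100 bp in 4 of 4 libraries, with mean ratios from 1.15 in the poorest class to 1.46 in the next. The classes did not match the 2 lengths fully. In the poorest class the short exons held 0.0276 CpGs per 100 bp and the long ones 0.625. In the richest class they held 5.37 and 5.51, with a G+C content of 54.8% and 59.8%. Last exons behaved otherwise by length. Last coding exons over 1000 bp were at 0.862 and 1.04 in wild-type cells and 0.861 and 0.915 in HDAC7-deficient cells, or 0.744 of internal exons of that length on average. Among them, the 237 exons of Zfp genes, which often encode their whole zinc finger array in the last exon, had relative densities of 0.297 and 0.620 in wild-type cells and 0.290 and 0.479 in HDAC7-deficient cells. The 654 last exons of other genes in this length class had 1.06, 1.18, 1.06 and 1.07. The Zfp exons also held fewer CpGs (1.94 against 2.79 per 100 bp) and less G+C (44.4% against 52.5%), and the part of these was not tested. Many Zfp genes have closely related copies, so the placing of reads among them is uncertain.

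The longest internal coding exons differed widely among themselves. The exon of 17106 bp in Ttn, which encodes the giant muscle protein titin (chr2:76736064-76753169), had 1 and 6 peaks in wild-type cells and 1 and 5 in HDAC7-deficient cells and was covered over 0.205% to 5.33% of its bases. The exon of 11544 bp in the mucin gene Muc16 (chr9:18636512-18648055) had 10, 9, 10 and 11 peaks, although its CpG density was only 0.372 per 100 bp. In Cmya5, a gene of striated muscle, the exon of 9310 bp had 9 and 6 peaks in wild-type cells and 10 and 6 in HDAC7-deficient cells. In Fsip2, a gene of the sperm flagellum, an exon of 9659 bp had 1 and 2 peaks in wild-type cells and none in either HDAC7-deficient library. In Xirp2, another gene of striated muscle, an exon of 9265 bp had 4 and 6 peaks in wild-type cells and 3 and 10 in HDAC7-deficient cells. In Stard9 an exon of 9837 bp had 1, 2, 2 and 2. Relative density over these 6 exons ran from 0 in both HDAC7-deficient libraries in Fsip2 to 2.01 in HDAC7-deficient replicate 2 in Xirp2, and in Muc16 it was 1.39 to 1.78.

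**Figure D3:**
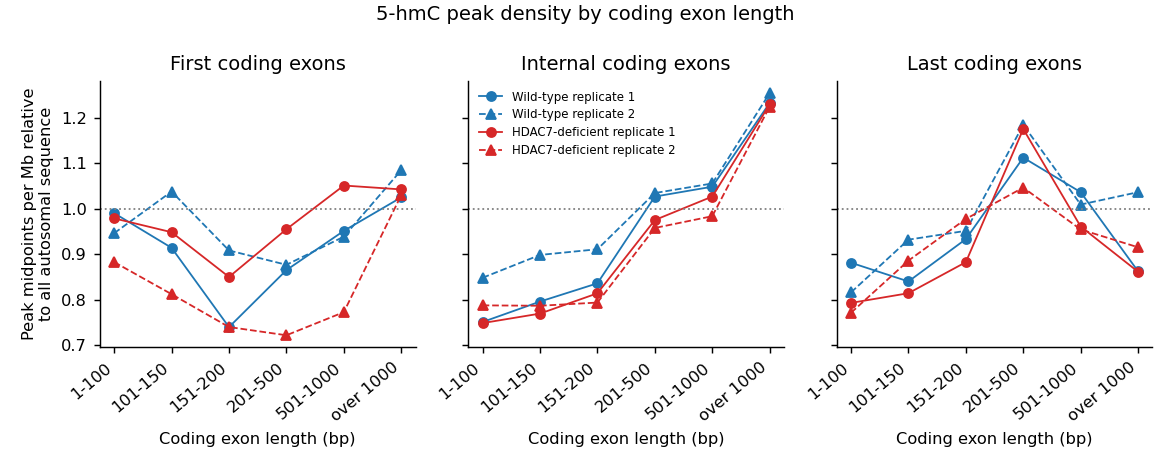
Relative peak density of first, internal and last coding exons by length in bp, with 1 line per library and the autosomal density at 1 (dotted). Internal exons rise to between 1.22 and 1.25 in the class over 1000 bp, while first and last exons do not rise steadily.

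Order in the gene was compared next. Last coding exons, in which the coding sequence ends, had slightly more peaks per base than internal ones. First coding exons, which contain the start codon, did not differ from internal ones in a fixed direction. The ratio of last to internal exons was 1.083 in both libraries from wild-type cells and 1.097 and 1.098 in HDAC7-deficient cells (mean 1.09 ± 0.00829, SD, n = 4, above 1 in 4 of 4, exact sign-flip permutation p = 0.13). This held with peaks assigned by midpoint, while by any overlap the ratio was 0.820. It also depended on the exons compared, since last exons were below internal ones in the poorest CpG class (mean ratio 0.859, below 1 in 4 of 4) and above them in 4 of 4 libraries in the 3 richest classes. The ratio of first to internal exons was 1.04 and 1.01 in wild-type cells and 1.14 and 0.958 in HDAC7-deficient cells, above 1 in 3 of 4 (exact sign-flip permutation p = 0.5, and p = 1 by any overlap with a mean ratio of 0.996). Short first exons, up to 100 bp, were denser than internal ones of that length in 4 of 4 libraries (mean ratio 1.22), and those over 200 and up to 500 bp were less dense in 4 of 4 (0.856).

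Exons used only by transcripts other than the representative had a relative density of 1.06 and 1.12 in wild-type cells and 1.09 and 1.12 in HDAC7-deficient cells, or 1.17 to 1.29 times that of internal exons. Single coding exons stood at 0.934, 1.16, 1.01 and 1.15. Of these, the 1105 exons of olfactory receptor (Olfr) genes, a large receptor family poor in CpG (0.874 per 100 bp), had 1.20 and 1.58 in wild-type cells and 1.35 and 1.74 in HDAC7-deficient cells. The other 2089 single exons had 0.800, 0.944, 0.838 and 0.857, so the high value of single exons was found in the Olfr genes. The Olfr values spread more between libraries (SD 0.237, against 0.0610 for the other single exons). The placing of reads among the genes of this family was not tested. Internal exons whose length is a multiple of 3, which can be skipped without a shift of the reading frame, had 1.01 times the density of the rest. Internal exons used by every coding transcript of their gene had 0.952 times the density of those used by under 50% of them, with 1 of 4 libraries above 1. By distance from the nearest annotated transcription start site, internal exons fell from 1.10, 1.14, 0.994 and 0.990 under 500 bp to 0.525, 0.792, 0.605 and 0.627 beyond 100000 bp. These 2 classes also differed in sequence, with 3.07 against 2.43 CpGs per 100 bp and 53.0% against 49.5% G+C. The part of distance was not tested apart from this.

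Internal coding exons also differed by CpG density and, more widely, by G+C content. The poorest class (up to 1.01 CpGs per 100 bp) had a relative density of 0.495 and 0.689 in wild-type cells and 0.538 and 0.641 in HDAC7-deficient cells, and the richest class (over 3.94 per 100 bp) had 1.25, 1.20, 1.15 and 1.06. The ratio of the richest to the poorest class was 2.51 and 1.75 in wild-type cells and 2.14 and 1.65 in HDAC7-deficient cells (mean 2.01 ± 0.395, SD, n = 4, above 1 in 4 of 4, exact sign-flip permutation p = 0.13). The libraries numbered 1 of both genotypes had the steeper rise. Peaks did not keep pace with CpGs, since 57.9 to 86.9 peaks were found per 1000 CpGs in the poorest class and 10.6 to 12.6 in the richest. The ratio between the highest and lowest of 5 classes by G+C was 3.11, 1.97, 2.69 and 1.87. Within classes of like G+C, exons with CpG density above the median of their class had 1.05 to 1.41 times the peak density of the others on average, above 1 in 4 of 4 libraries in 4 of the 5 classes and in 3 of 4 in the other. The part of G+C in this result was not tested.

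First coding exons did not follow this rise at the high end. In the richest CpG class, which took 8506 of the 17253 first coding exons, their relative density was 0.893 and 0.903 in wild-type cells and 0.987 and 0.692 in HDAC7-deficient cells, below that of the class before it (1.25, 1.28, 1.23 and 1.11) in every library. The ratio of first to internal exons in the richest class was 0.717, 0.751, 0.858 and 0.654, below 1 in 4 of 4, whereas it was above 1 in 4 of 4 in the class before it, at 1.19 to 1.27. The first exons of the richest class that lay within 500 bp of a transcription start site (7186 exons, 9.43 CpGs per 100 bp) had 0.821, 0.861, 0.940 and 0.621. Those farther away (1320 exons, 6.94 CpGs per 100 bp) had 1.04, 0.990, 1.08 and 0.838. The lower value near a start site was seen in 4 of 4 libraries, with a mean ratio of 0.817.

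**Figure D4:**
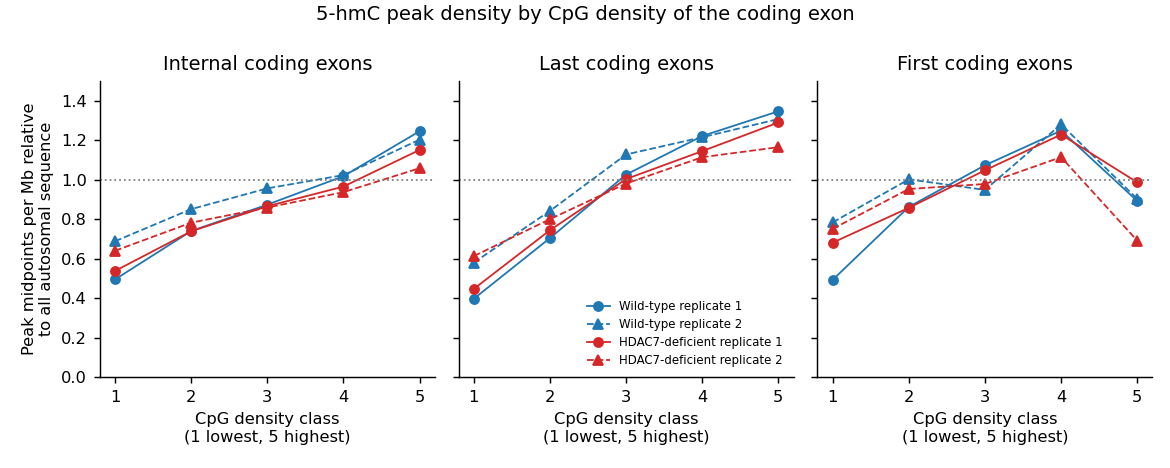
Relative peak density of internal, last and first coding exons in 5 classes of CpG density, whose limits divide the internal exons evenly, with 1 line per library. Internal and last exons rise to the richest class, and first exons drop there to between 0.692 and 0.987.

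The genotypes were then compared. The relative density of coding exons was 0.949 ± 0.0543 (SD, n = 2) in wild-type cells and 0.905 ± 0.000909 (SD, n = 2) in HDAC7-deficient cells, a ratio of 0.954 ± 0.0546 (two-sided exact permutation test over 2 and 2 libraries, p = 0.33, the smallest that these allow, and 1 after adjustment over the 7 comparisons). Both HDAC7-deficient values were below both wild-type values, but the wild-type replicates lay farther apart than the means. On chromosomes 1 to 13 the HDAC7-deficient values were 0.900 and 0.915 against 0.909 and 0.994, so the genotypes overlapped. Against adjacent intron the ratio of the genotypes was 0.983 ± 0.0562, for covered bases 0.953 ± 0.0878, for first over internal exons 1.02 ± 0.127, for long over short internal exons 0.989 ± 0.0920 and for CpG-rich over CpG-poor internal exons 0.890 ± 0.278. In each of these the difference was smaller than the spread between replicates. The ratio of last to internal exons was higher in both HDAC7-deficient libraries, by 1.01 ± 0.000832 times (exact permutation p = 0.33), and with peaks at least 200 bp wide this was 0.963. On chromosomes 1 to 13 it was 1.0044, and with peaks within 100 bp merged it was 1.0014. Under neither alternative were the libraries of the genotypes separated. The coding exons of chromosome X, which are outside the set, had 0.523 and 0.562 of the autosomal coding density in wild-type cells and 0.404 and 0.883 in HDAC7-deficient cells, so the HDAC7-deficient libraries lay on both sides.

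Most coding exons had no peak midpoint in any library, 159555 of 198133 (80.5%), and 25169 had one in 1 library only. A peak in all 4 libraries was found in 2020 exons (1.02%) of 1893 genes. Their median length was 930 bp, and 23.3% of them were single exons. This count went with length, since 0.0372% of internal exons of at most 100 bp and 36.9% of those over 1000 bp had a peak in all 4 libraries. Between the genotypes, 1215 coding exons (0.613%) were gained and 1185 (0.598%) were lost, where the wild-type libraries both had a peak and the HDAC7-deficient ones lacked it. Each count rose when a library was left out, gained exons to between 2041 and 7169 and lost exons to between 1848 and 9130. Both were smaller with peaks at least 200 bp wide, at 405 and 463. On chromosomes 1 to 13 alone they were 933 and 929. Gained and lost exons were alike in length (medians of 177 and 179 bp), and held 2.92 and 3.27 CpGs per 100 bp.

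As merged regions, 974 of the 37270 with their midpoint in a coding exon were gained (2.61%) and 942 were lost (2.53%), against 2.91% gained and 2.43% lost among all 2463835 regions. The coding shares were near the background in both directions, and gained exceeded lost regions 1.03 times in coding exons, 1.09 times in adjacent intron and 1.19 times over all. Regions were not counted on chromosomes 1 to 13 alone. They include chromosomes 14 to 19, where HDAC7-deficient replicate 2 had more peaks. Coding regions were seen more often in 1 library only, 62.0% against 52.7% of all regions, and less often in all 4, 8.52% against 12.6%. Regions in adjacent intron lay between, with 56.6% in 1 library only and 10.4% in all 4. These values are descriptions with no test. Overlap of coding bases under peaks (shared bases over bases in either list) was 0.245 between the replicates numbered 1 of the 2 genotypes, and 0.180 to 0.206 for the other 5 pairs of libraries. It was 0.180 between the wild-type replicates and 0.205 between the HDAC7-deficient ones, within the range of the 4 pairs between genotypes (0.180 to 0.245).

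By gene, 15693 of 20807 had a coding peak in at least 1 library. In 1033 genes each HDAC7-deficient library had more coding peaks than either wild-type library (4.96% of all, or 6.58% of those with a coding peak), and in 1036 each had fewer (4.98%, or 6.6%). On chromosomes 1 to 13 alone these were 767 and 812 genes. By coding bases under peaks, a measure added after the values were seen, each HDAC7-deficient library was above both wild-type ones in 2134 genes (10.3%) and below both in 2634 (12.7%). These shares are the background for the genes named below. Hdac7 itself, the deleted gene (26 coding exons, chromosome 15, 97792664 to 97844502, minus strand), had 3 and 2 coding peaks in wild-type cells and 0 and 2 in HDAC7-deficient cells, so the genotypes overlapped, and an exon without a peak may still be present. None of the 4 class IIa histone deacetylases, corepressors of MEF2 factors, had more or fewer coding peaks in both HDAC7-deficient libraries. Hdac4 had 1, 0, 0 and 2 coding peaks, Hdac5 2, 2, 4 and 2, and Hdac9 3, 2, 4 and 2, in the order wild-type 1 and 2, HDAC7-deficient 1 and 2, which is used for the genes that follow.

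Among 15 transcription factors of the B lineage, 3 had more coding peaks in both HDAC7-deficient libraries and none had fewer. Pax5, which holds cells in the B lineage, had 0, 1, 3 and 2 coding peaks. Spi1, the myeloid and B-cell factor PU.1, had 1, 1, 2 and 2, and Myb, needed in lymphoid progenitors, had 1, 1, 4 and 3. By covered bases Spi1 stayed apart, at 12.1% and 7.16% against 22.7% and 26.9%. The genotypes overlapped for Pax5, at 4.37% and 21.8% against 14.3% and 13.4%, and for Myb, at 9.36% and 18.8% against 17.9% and 18.2%. Ebf1 had 6, 2, 5 and 1 peaks, Ikzf1 (Ikaros) 3, 0, 2 and 0, and Mef2c, which works with HDAC7, 4, 1, 0 and 1, without a separation of the genotypes. Foxo1 had 4, 2, 2 and 1 peaks and Runx1 had 4, 4, 3 and 4, but both were lower in both HDAC7-deficient libraries by covered bases. These were 17.1% and 14.9% against 14.7% and 0.869% in Foxo1, and 54.2% and 62.7% against 25.4% and 48.1% in Runx1. By covered bases 1 of the 15 factors was thus higher and 2 were lower. Over the 15 genes there were 39, 20, 30 and 28 coding peaks, or 2.92, 1.39, 2.05 and 2.04 times the autosomal density, where all genes had 0.911, 0.988, 0.910 and 0.904. The ratio of the genotypes was 0.949 ± 0.478 (SD), and the median difference per gene was -0.5 peaks.

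The 8 enzymes of DNA methylation and demethylation held 25, 21, 23 and 16 coding peaks. Tet3, a TET dioxygenase that makes 5-hmC, had the most of them, with 9, 7, 10 and 6 and 23.2% to 27.1% of its coding bases covered in every library. Tet2 had 5, 3, 4 and 2, and Tet1 had 1, 3, 3 and 3, which overlapped between the genotypes. By covered bases Tet2 was lower in both HDAC7-deficient libraries, at 14.7% and 10.4% against 9.50% and 2.88%, and Tet1 was higher, at 3.20% and 3.16% against 9.19% and 4.84%. Of the methyltransferases, Dnmt1, which copies methylation at replication, had 1, 4, 3 and 3, while Dnmt3a and Dnmt3b, which set it anew, had 4, 2, 2 and 2 and 3, 0, 0 and 0. Uhrf1, the partner of Dnmt1, was the only gene of the list with fewer coding peaks in both HDAC7-deficient libraries, with 2, 2, 1 and 0, and also had fewer covered bases (17.6% and 16.6% against 11.7% and 9.21%). No gene of the list had more coding peaks, and Tdg, the glycosylase that removes oxidised cytosines, had no coding peak in any library. Among the 7 AP-1 subunits, Junb, a single-exon gene, had 1 and 1 coding peaks in wild-type cells and none in HDAC7-deficient cells, and no subunit had more in both HDAC7-deficient libraries. Jun had 0, 0, 2 and 0, and Jund had none. By covered bases Jun was higher in both HDAC7-deficient libraries, at 0% and 0% against 26.8% and 14.1%, while Junb (4.46% and 24.5% against 0% and 0%) and Fosl2 (42.6% and 45.8% against 35.4% and 41.8%) were lower. Over the list there were 5, 5, 5 and 7 coding peaks. Counts this low change with the placing of a single peak.

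**Figure D5:**
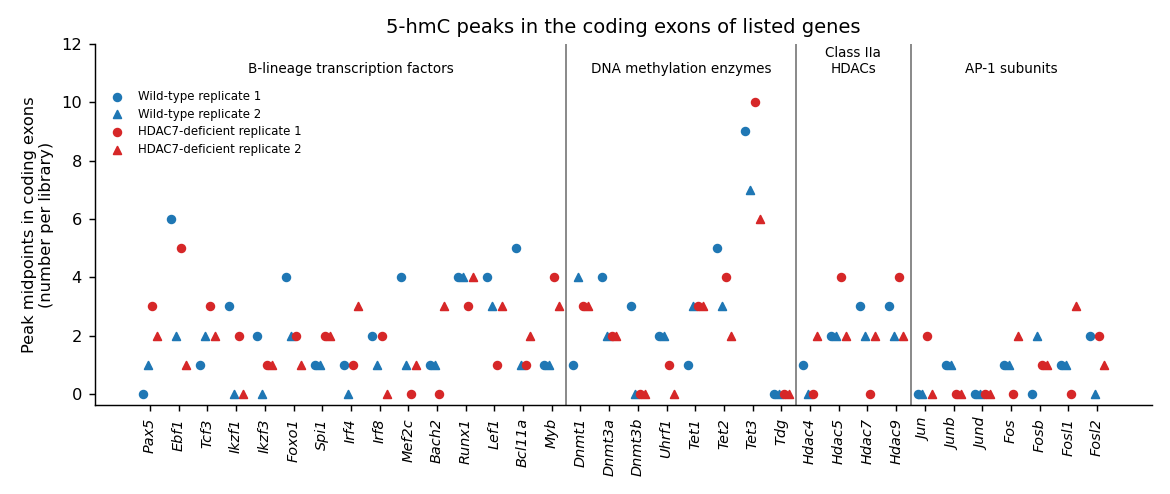
Number of peak midpoints in the coding exons of the listed genes, with 1 point per library (blue wild-type, red HDAC7-deficient, circles replicate 1, triangles replicate 2). Tet3 has the highest counts, 6 to 10, and red and blue points are interleaved for most genes.

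The genes with the most coding exons that had a peak in all 4 libraries were large. They were Ttn (5 of 347 coding exons), the presynaptic scaffold gene Pclo (4 of 25), the histone H3 lysine methyltransferase gene Kmt2d (4 of 55), the cytoskeletal linker gene Macf1 (4 of 105) and R3hdm2 (3 of 27). Ttn had 20, 37, 24 and 34 coding peaks on 112076 coding bases, yet these covered only 2.42% to 5.32% of them. Pclo was covered over 12.5% to 22.1%, Kmt2d over 13.8% to 24.2% and R3hdm2 over 23.2% to 28.1%. In each of the 5 genes the genotypes overlapped or were level by the number of coding peaks, except for Kmt2d, with 16, 20, 15 and 13. By covered bases the genotypes overlapped in Kmt2d, at 16.1% and 24.2% in wild-type cells against 13.8% and 16.7% in HDAC7-deficient cells.

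The genes with the largest differences between the genotypes are given as a description, since they were chosen by it. The zinc finger gene Zfp407 had 1 and 2 coding peaks in wild-type cells and 6 and 7 in HDAC7-deficient cells, and was covered over 1.42% and 8.67% against 13.8% and 12.8%. Its chromosome is among those on which HDAC7-deficient replicate 2 had more peaks. Utp20, needed for ribosomal RNA processing, had 2, 1, 6 and 6 coding peaks, Numa1, a protein of the spindle poles, had 5, 5, 8 and 8, and Rbbp6, a ubiquitin ligase that binds RB, had 6, 6, 11 and 9. In all of these covered bases were higher in both HDAC7-deficient libraries too, from 5.21% and 7.23% against 8.41% and 9.67% in Utp20 to 13.9% and 11.1% against 26.3% and 23.3% in Numa1. In Tmem108, a membrane protein with 1, 1, 5 and 6 coding peaks, covered bases overlapped between the genotypes, at 14.1% and 64.9% against 67.4% and 45.5%.

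In the opposite direction, the endocytic receptor gene Lrp1 had 12 and 13 coding peaks in wild-type cells and 7 and 5 in HDAC7-deficient cells. Cep250 and Pcnt, which encode centrosomal proteins, had 15, 13, 9 and 9 and 10, 13, 6 and 6. Arhgef40 had 6, 7, 2 and 2, and Gigyf2, a translational repressor, had 9, 9, 5 and 2. By covered bases Lrp1 (16.5% and 10.6% against 9.85% and 10.1%), Pcnt (15.8% and 20.9% against 13.5% and 10.1%) and Gigyf2 (22.5% and 29.2% against 17.2% and 15.1%) stayed lower in both HDAC7-deficient libraries. Cep250 (28.0% and 44.0% against 26.6% and 28.1%) and Arhgef40 (14.2% and 28.8% against 7.66% and 16.5%) overlapped. By number of coding peaks, 4.96% of all genes were separated upward and 4.98% downward.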

How the data were processed

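Members and gene lists were chosen with earlier results of these data known. The deposited files hold the start and end positions of peaks and no other value. Reads were trimmed by the authors (Cutadapt 1.6 through Trim Galore 0.4.2), aligned (the submitters' processing notes name Bowtie2 and build mm10, the methods name bwa), freed of duplicates, turned into RPKM coverage with deepTools and submitted to MACS2 bdgpeakcall, library by library, at a fixed signal cutoff. Peaks meeting an input peak were removed, and it is not stated whether before deposit. Reads that map to several places and the cutoff can both move peak numbers between libraries.

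Coding exons were merged CDS records. The reference, GRCm38 with GENCODE M21, is the build of the files, and no peak ran past a chromosome end. A peak belonged to the interval that held its midpoint. Density was midpoints per Mb, and relative density divided it by that of all known bases of chromosomes 1 to 19. Introns exclude every annotated exon. Depth is unknown, so no counting interval is given. Ratios per library were tested with two-sided exact sign-flip permutation tests over 4 libraries, and genotypes with two-sided exact permutation tests over 2 and 2, each adjusted by Benjamini-Hochberg within 7 main and 41 further comparisons. The SD of a ratio was propagated from the replicates. The named genes were 4 lists, the 5 genes with most coding exons with a peak in all libraries, the 5 with the largest excess in each direction, and exons of 90 to 200 bp chosen by coverage, outside chromosome 18. Among exons without coverage, those with most CpGs were taken. The 6 longest internal coding exons were added after values were seen. Alternatives were peaks at least 200 bp wide, chromosomes 1 to 13, representative transcripts, peaks within 100 bp merged, assignment by overlap, other definitions of order, intron and presence, each library left out, the replicate block, and exons without soft-masked bases and genes compared by covered bases (both added after seeing the data). Python 3.11.15, NumPy 2.4.6 and pandas 2.3.3 were used, and the code was tested on simulated peaks.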

Additional observations from a re-analysis of the deposited data

How the results depend on the processing

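Counting a peak for every interval it met by at least 1 bp reversed the mean density of coding exons to 1.75 times that of the autosomes and 1.40 times that of adjacent intron. It also reversed the ratios to internal exons of first exons (0.996) and last exons (0.820) and the ratio of long to short internal exons (0.542). By construction overlap favours short intervals. These directions held under every other alternative, as did those of covered bases and of CpG-rich against CpG-poor internal exons under every alternative run for them. Their sizes changed. Coding density relative to the autosomes, 0.927 in the main setting, was 0.819 in exons without a soft-masked base and 0.748 with wide peaks. The ratio of long to short internal exons, 1.35 in the main setting, was 1.16 and 1.64 under these 2 alternatives. Gained and lost exons numbered 405 and 463 with peaks at least 200 bp wide, 2593 and 2747 by overlap, and 667 and 685 in exons without a soft-masked base. Genes with more and with fewer coding peaks numbered 436 and 568 with wide peaks, those with more numbered 619 without soft-masked bases, and by covered bases, an alternative added after seeing the data, they numbered 2134 and 2634. Leaving out a library gave 2041 to 7169 gained and 1848 to 9130 lost exons, and 2092 to 3271 genes with more and 1992 to 4031 with fewer coding peaks, because fewer libraries had to hold or lack a peak.

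The HDAC7-deficient over wild-type ratio of coding density stayed below 1 under all alternatives (0.917 to 0.994 with a library left out). Other genotype ratios, all near 1, turned as follows. First over internal exons became 0.982 with wide peaks, 0.997 on chromosomes 1 to 13, 0.999 without soft-masked bases and 0.936 without HDAC7-deficient replicate 1. Last over internal exons became 0.963 with wide peaks. Long over short internal exons became 1.01 on chromosomes 1 to 13, 1.0018 with representative transcripts, 1.0012 with merged peaks, 1.02 by overlap and without soft-masked bases, and 1.05 and 1.02 without wild-type replicate 1 and HDAC7-deficient replicate 2. CpG-rich over CpG-poor exons became 1.09 and 1.0036 without the same libraries. Against adjacent intron the ratio became 1.02 without wild-type replicate 2 and 1.0028 without HDAC7-deficient replicate 1, and that of covered bases became 1.02 without wild-type replicate 2. With a library left out these ratios spanned 0.936 to 1.11 for first over internal, 0.937 to 1.05 for long over short, 0.754 to 1.09 for CpG-rich over CpG-poor, 0.950 to 1.02 against adjacent intron and 0.895 to 1.02 for covered bases. The causes were not tested.

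With the replicate number as a block the ratio of coding density was 0.955 (exact sign-flip permutation p = 0.5 over 2 pairs, the smallest possible) and no direction changed. Deviations of same-numbered libraries correlated at 0.0327 over 68196 exons, and the labels do not say that a number marks a shared batch. The replicates numbered 1 nevertheless had the highest overlap of coding bases (0.245) and the higher CpG and length ratios of each genotype, and a batch shared by number was not tested.

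Peak heights and read depth are unknown, which limits all values, and with 2 libraries per genotype the exact permutation test gives no p below 0.33.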
